A study of Mus musculus with 12 samples.

Results

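The 9 genes described here encode transcription factors that set the effector program of T cells: Prdm1, Maf, Tbx21, Eomes, Zeb1, Zeb2, Bhlhe40, Bach2 and Nfil3. They were taken by symbol from a list, chosen with earlier results of these data known, and all 9 were found among the 24421 gene symbols of each count table. RNA sequencing compared CD8+ T cells from the spleens of C57BL/6 mice in a DMSO control group (solvent only, n = 6 libraries) with a group given an EZH2 inhibitor (EZH2i, n = 6 libraries). EZH2 adds the repressive methyl marks of the Polycomb system to histone H3. The sources used here give neither the name, dose or duration of the inhibitor, nor the age of the mice, nor whether each library is a separate animal. If they are not, the p-values reflect technical spread between libraries only.

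Naive CD8+ T cells carry factors that hold back effector genes, and stimulation brings in others that switch them on. Tbx21 (T-bet) and Eomes are related T-box activators of cytotoxic genes; Prdm1 (Blimp-1) is a repressor of terminally differentiated cells, and Bach2 is a repressor of effector genes that keeps cells in a less differentiated state. Maf (c-Maf) drives interleukin 10 and, together with Blimp-1, inhibitory receptors. Zeb1 and Zeb2 are related zinc finger repressors, of which Zeb2 acts with T-bet in terminal effector cells. Bhlhe40 is a basic helix-loop-helix factor induced by T cell receptor signals, and Nfil3 is a basic leucine zipper repressor with roles in cytokine control and lymphocyte development.

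Levels are given as CPM, a gene's counts relative to the scaled total of its library. A gene was called where its Benjamini-Hochberg adjusted p from edgeR's quasi-likelihood test was under 0.05 across all 11727 genes tested, and fold changes are EZH2i against DMSO. With EZH2i, Prdm1, Maf, Eomes, Zeb2 and Nfil3 rose, and none of the 9 fell; no member had an unadjusted p under 0.05 with a lower level, and DESeq2 called 0 lower. Tbx21, Zeb1, Bhlhe40 and Bach2 were not called. The 5 of 9 called higher stand beside 13.3% of all tested genes called higher and 6.05% called lower. The median log2 fold change of the 9 was 0.82, against -0.01 over all tested genes. In 6 of the 9, the EZH2i library was above the DMSO library of the same number in 6 of 6 pairs, a pattern held by 21.2% of tested genes, with 19.2% lower in 6 of 6. The groups did not overlap for 2 of the 9, Prdm1 and Maf, where 7.5% of tested genes lay wholly higher in EZH2i and 2.74% wholly lower.

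Libraries held 17215483 to 31206228 counts. Library 6 stood apart from the other 5 in both groups on the first principal component, at -64.1 in DMSO and -23.3 in EZH2i. CD8 T cell markers were high throughout, at a summed 3001 to 4080 CPM over 5 markers in DMSO and 2216 to 3346 CPM in EZH2i. The lowest sum of each group was library 6. All 5 had negative log2 fold changes, from -0.37 to -0.09, and 2 were called lower, or 3 when blocked on number. Cd4, the coreceptor of helper T cells, was at 0.0887 ± 0.0994 CPM in DMSO and 0.0983 ± 0.130 in EZH2i (SD, n = 6). With the replicate number as a block, 8 of the 9 genes were called higher, beside 24.7% of tested genes called higher and 24.3% lower. Without both libraries 6 it was likewise 8, beside 23.9% higher and 20.9% lower of 11764 genes tested. In bulk RNA, a change in the share of a cell type and a change in RNA per cell cannot be told apart.

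**Figure D1:**
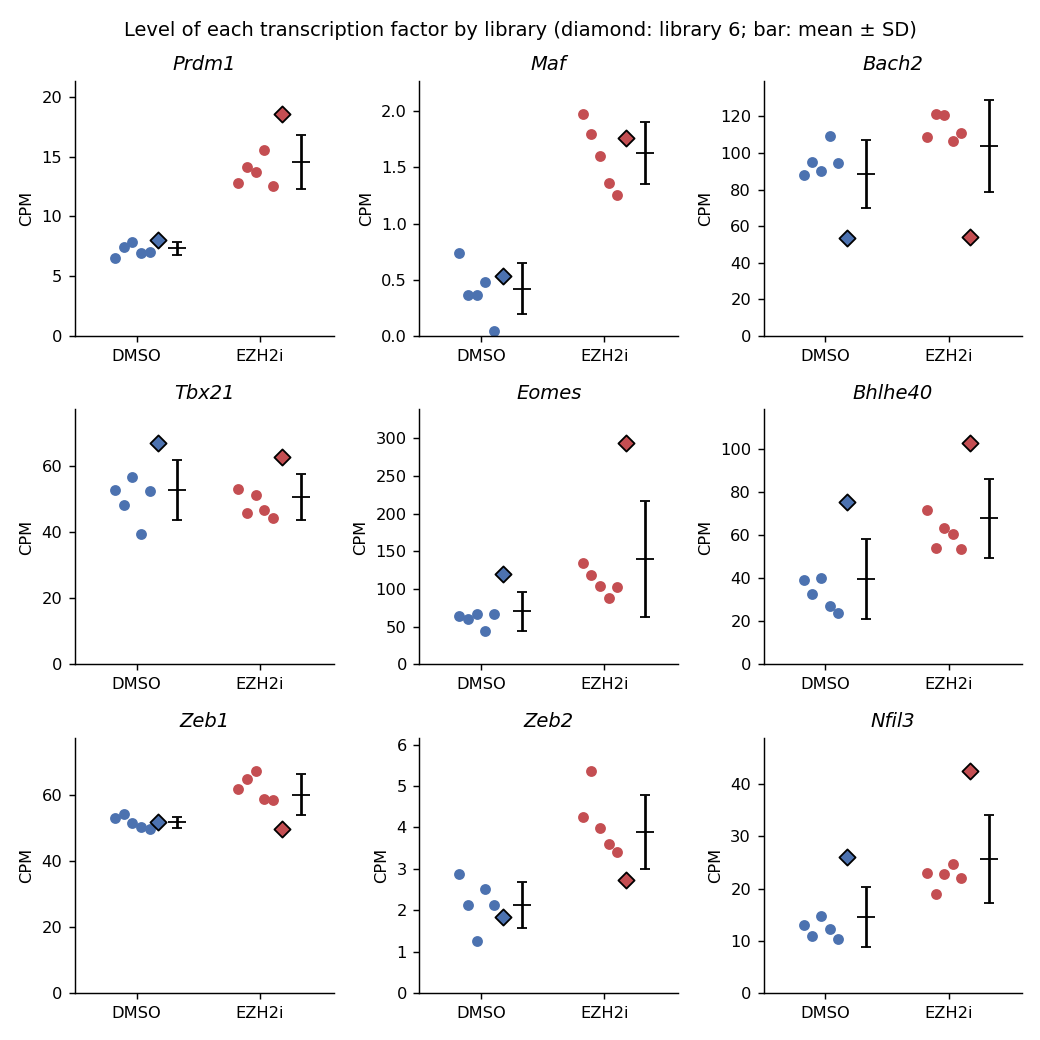
Level in CPM (vertical axes, from 0) of the 9 factors in each DMSO and EZH2i library, with library 6 as a diamond and mean ± SD as a bar. Prdm1 and Maf do not overlap between the groups, Tbx21 lies at the same height in both, and library 6 is the highest of its group for Eomes, Bhlhe40, Nfil3, Tbx21 and Prdm1 and the lowest for Bach2.

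The promoters of a related pair that parted in these data, Eomes and Tbx21, and of Prdm1, which rose without overlap, are shown first, as the sequences from which transcription of these genes may start. Each line gives the 250 bases before the RefSeq start in build GRCm38.p6, on the gene's own strand. Eomes is at chr9:118477939-118478188 on the plus strand, Tbx21 at chr11:97115332-97115581 and Prdm1 at chr10:44458749-44458998, both on the minus strand. The Prdm1 window lies inside the gene's annotated span, 44437177 to 44528501, and not at its outer start. Capitals mark matches to the motifs spelled out after them, searched on both strands.
Eomes: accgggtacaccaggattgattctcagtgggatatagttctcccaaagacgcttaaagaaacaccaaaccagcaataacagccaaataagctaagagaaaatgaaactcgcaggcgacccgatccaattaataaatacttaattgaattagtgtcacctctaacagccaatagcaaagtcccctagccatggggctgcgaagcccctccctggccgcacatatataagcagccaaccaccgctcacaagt
Tbx21: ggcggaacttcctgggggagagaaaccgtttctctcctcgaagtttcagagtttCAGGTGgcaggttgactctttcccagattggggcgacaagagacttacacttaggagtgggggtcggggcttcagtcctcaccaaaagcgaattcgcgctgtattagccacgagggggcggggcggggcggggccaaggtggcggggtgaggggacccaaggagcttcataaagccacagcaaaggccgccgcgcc
Prdm1: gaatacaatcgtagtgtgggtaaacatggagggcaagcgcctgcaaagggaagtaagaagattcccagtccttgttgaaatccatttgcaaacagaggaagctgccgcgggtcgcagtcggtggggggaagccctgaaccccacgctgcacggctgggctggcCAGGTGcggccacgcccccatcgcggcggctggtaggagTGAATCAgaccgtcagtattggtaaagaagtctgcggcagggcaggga

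The motifs were CACGTG (the E-box that Bhlhe40 binds), CACCTG (the E2-box that Zeb factors bind), AGGTGTGA (T-box), TGANTCA (AP-1 and Bach factors), TTANGTAA (Nfil3), TGCTGA (a part of the Maf site) and GAAAGTG (Blimp-1). TGCTGA can overlap TGANTCA, and no marked matches overlapped. The Tbx21 window held 1 match to CACCTG, read as CAGGTG, beginning 196 bases before the start. The Prdm1 window held the same letters beginning 87 bases before the start, and TGAATCA beginning 48 bases before it. In all, 17.2% of the 32851 promoter windows of this length held CACCTG and 6.75% held TGANTCA. The Eomes, Bach2 and Nfil3 windows held none of them, which says only that these letters are not in these windows. Of the 4 RefSeq starts of Zeb2, 1 had 2 matches to TGANTCA, beginning 189 and 132 bases before it. The counts do not tell which start was used.

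CpG dinucleotides, which are dense at many Polycomb-bound promoters, numbered 8 in the Eomes window, 16 in Tbx21, 15 in Prdm1, 7 in Bach2 and 43 in Nfil3. The Bach2 window, chr4:32417185-32417434, lies inside the gene's annotated span of 32238804 to 32586108, as the Prdm1 window does inside its own. Their counts do not describe the outer starts of these genes. Nfil3 lay above 99.3% of all promoter windows by CpG count. The 4 starts of Zeb2 held 6 to 14. The median was 6 over all windows and 17 over tested genes, taking for each the start with most CpGs. Over genes called higher, taken in the same way, the median was 18. Whether CpG counts relate to the calls was not tested. RefSeq windows were matched for 6 of the 9 genes. Maf, Zeb1 and Bhlhe40 had no entry.

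Prdm1 encodes Blimp-1, and lies on chromosome 10 from 44437177 to 44528501 (GENCODE M21, GRCm38). It measured 6.56 to 8.04 CPM in DMSO (median 7.26) and 12.6 to 18.5 CPM in EZH2i (median 13.9). Every EZH2i library was above every DMSO library, and EZH2i library 6 was the highest. The means were 7.32 ± 0.580 and 14.6 ± 2.23 CPM (SD, n = 6), a 1.99-fold rise (log2 fold change 0.99, SE 0.11, edgeR adjusted p = 4.08e-05). The differences between same-numbered libraries were even, from 0.79 to 1.20 on the log2 scale. Prdm1 had the smallest adjusted p of the 9 genes in the test over all 12 libraries.

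Maf, on chromosome 8 from 115682942 to 115707794, was the rarest of the 9 in CPM and had the greatest fold change. DMSO libraries held 1 to 16 reads each (0.0432 to 0.739 CPM, median 0.424) and EZH2i libraries 29 to 57 (1.25 to 1.97 CPM, median 1.68). The groups did not overlap. Mean levels were 0.423 ± 0.231 and 1.62 ± 0.276 CPM (SD, n = 6; log2 fold change 1.94, SE 0.35, edgeR adjusted p = 0.00177). The largest same-numbered difference, 3.42, came from number 5, where the DMSO library held 1 read, and the other 5 differences ran from 1.32 to 2.06. Maf passed the filter on low counts through EZH2i, since 3 of 6 DMSO libraries lay under its limit of 0.409 CPM. The other 8 genes exceeded it in all 12 libraries.

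Bach2, a repressor that opposes Prdm1, was not called lower. It lies on chromosome 4 from 32238804 to 32586108 and measured 53.5 to 109 CPM in DMSO (median 92.4) and 54.2 to 121 CPM in EZH2i (median 110.0). The groups overlapped, and the lowest value in each was library 6. The means were 88.5 ± 18.7 and 104 ± 25.0 CPM (SD, n = 6; log2 fold change 0.23, SE 0.19, edgeR adjusted p = 0.464). Blocking on the replicate number gave Bach2 an adjusted p of 0.00965, and leaving out both libraries 6 one of 0.00391, each with a higher level in EZH2i. Libraries 1 to 5 ran from 88.0 to 109 CPM in DMSO and from 107 to 121 CPM in EZH2i. Within number 6 the log2 difference was 0.02.

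The T-box pair behaved differently. Tbx21, on chromosome 11 from 97098071 to 97115331, measured 39.5 to 67.2 CPM in DMSO (median 52.7) and 44.3 to 62.9 CPM in EZH2i (median 49.1). The groups overlapped throughout, and the EZH2i library was the higher of 2 of the 6 same-numbered pairs. The log2 fold change was -0.06 (SE 0.12, edgeR adjusted p = 0.788), and 0.00 with upper-quartile scaling. It was the 1 gene of the 9 that stayed uncalled with the replicate block (adjusted p = 0.528) and without both libraries 6 (adjusted p = 0.698).

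Eomes, on chromosome 9 from 118478212 to 118486132, measured 44.3 to 119 CPM in DMSO (median 65.6) and 88.5 to 294 CPM in EZH2i (median 111). The highest value in each group was library 6, and DMSO library 6 lay above 4 of the 6 EZH2i libraries. Among libraries 1 to 5 the groups did not overlap, at 44.3 to 67.3 CPM in DMSO and 88.5 to 134 CPM in EZH2i. The means were 70.5 ± 25.5 and 140.4 ± 76.9 CPM (SD, n = 6; log2 fold change 0.997, SE 0.30, edgeR adjusted p = 0.0339). Without both libraries 6 the log2 fold change was 0.86 (SE 0.11, adjusted p = 8.41e-06). Leaving out any 1 of DMSO libraries 1 to 5, or EZH2i library 1, ended the call, with adjusted p from 0.0560 to 0.0763 and log2 fold changes from 0.89 to 1.01, as did leaving out any 1 of numbers 1 to 5 in both groups (adjusted p from 0.0546 to 0.106).

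Set within each library, which removes any effect of library scaling, the Eomes to Tbx21 count ratio was higher in EZH2i. The log2 ratio was 0.17 to 0.36 in DMSO libraries 1 to 5 and 0.83 in library 6, and 0.92 to 1.37 in EZH2i libraries 1 to 5 and 2.22 in library 6. No DMSO library reached the lowest EZH2i library. The mean moved from 0.37 ± 0.24 to 1.35 ± 0.46 (SD, n = 6), a difference of 0.98 (two-sided exact permutation test, p = 0.00216, the smallest that 924 splits can give; adjusted over 3 ratios 0.00325). Per kilobase of exon, Eomes exceeded Tbx21 in 1 of 6 DMSO libraries and in 6 of 6 EZH2i libraries.

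**Figure D2:**
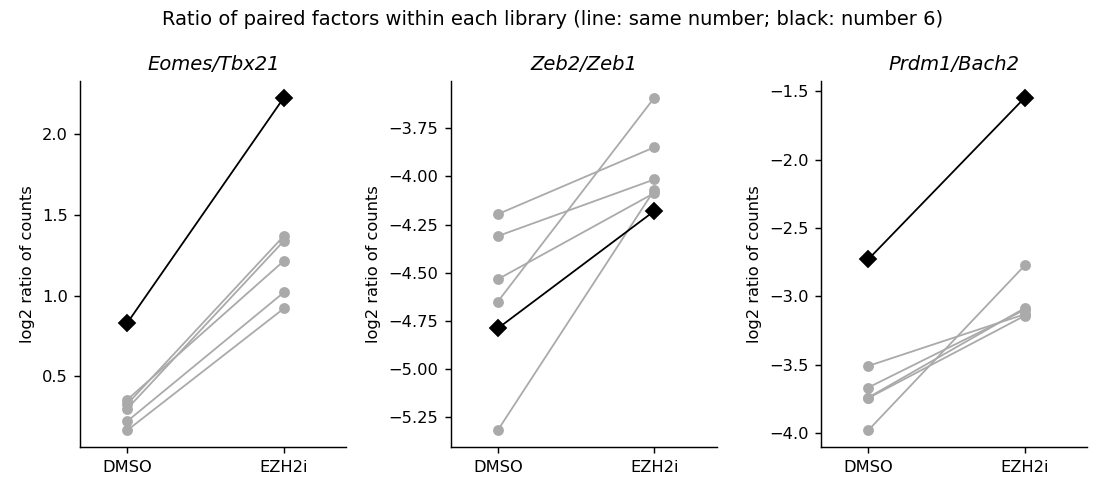
Log2 ratio of counts (vertical axes) of Eomes to Tbx21, Zeb2 to Zeb1 and Prdm1 to Bach2 in each library, with lines joining libraries of the same number and number 6 in black. Every line rises from DMSO to EZH2i, and number 6 lies above the others for Eomes to Tbx21 and for Prdm1 to Bach2.

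The Prdm1 to Bach2 log2 ratio was -3.98 to -2.73 in DMSO and -3.14 to -1.55 in EZH2i. The groups overlapped because DMSO library 6, at -2.73, lay above 5 of the 6 EZH2i libraries. The difference of the means was 0.77 (two-sided exact permutation test, n = 6, p = 0.0173, adjusted over 3 ratios 0.0173). Without both libraries 6 the difference was 0.68, with no overlap (exact permutation p = 0.00794, the smallest that 252 splits of 5 against 5 can give). Without number 1 or number 4 in both groups the adjusted p was 0.0556.

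Zeb1, on chromosome 18 from 5591860 to 5775467, measured 49.5 to 54.0 CPM in DMSO (median 51.6) and 49.6 to 67.1 CPM in EZH2i (median 60.1). It was the steadiest of the 9 in DMSO, with a coefficient of variation of 3.27%. EZH2i library 6, at 49.6 CPM, was the only EZH2i library inside the DMSO range, the other 5 lying between 58.3 and 67.1 CPM. The means were 51.6 ± 1.69 and 60.0 ± 6.12 CPM (SD, n = 6; log2 fold change 0.22, SE 0.073, edgeR adjusted p = 0.0533). Zeb1 reached an adjusted p of 0.00807 when blocked on number and 0.00419 without EZH2i library 6, with log2 fold changes of 0.21 and 0.27.

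Zeb2, on chromosome 2 from 44983632 to 45117395, was far rarer, with 24 to 68 reads per DMSO library and 79 to 170 per EZH2i library. It measured 1.26 to 2.86 CPM in DMSO (median 2.13) and 2.72 to 5.36 CPM in EZH2i (median 3.79). The groups overlapped narrowly: DMSO library 1 lay above EZH2i library 6. The log2 fold change was 0.87 (SE 0.21, edgeR adjusted p = 0.00986), and without number 2 in both groups 0.75 (adjusted p = 0.0527). The Zeb2 to Zeb1 log2 ratio moved from -4.63 ± 0.40 to -3.97 ± 0.21 (SD, n = 6), with no overlap between groups (difference 0.67, two-sided exact permutation p = 0.00216, adjusted over 3 ratios 0.00325). That p is the smallest that 924 splits can give. The groups only just parted, with DMSO library 1 at -4.196 and EZH2i library 6 at -4.179. Both members of the pair were thus higher in mean level, Zeb2 by more than Zeb1 on the log scale.

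Bhlhe40, on chromosome 6 from 108660629 to 108666925, measured 23.7 to 75.3 CPM in DMSO (median 35.8) and 53.7 to 103 CPM in EZH2i (median 62.0). The overlap came from DMSO library 6 alone, as the other 5 DMSO libraries stayed at or under 40.2 CPM. The means were 39.7 ± 18.6 and 67.7 ± 18.4 CPM (SD, n = 6; log2 fold change 0.77, SE 0.26, edgeR adjusted p = 0.0524). The EZH2i library was higher in 6 of 6 same-numbered pairs. Blocking on number gave 8.49e-07, and leaving out DMSO library 6 gave 0.00156 with a log2 fold change of 1.06. With all 12 libraries kept, Bhlhe40 was also called with upper-quartile scaling (0.0329) and in DESeq2 (0.0230).

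Nfil3, on chromosome 13 from 52967209 to 52981073, showed the same shape and was called. It measured 10.4 to 26.0 CPM in DMSO (median 12.5) and 18.9 to 42.5 CPM in EZH2i (median 22.8). Library 6 was again the highest of each group. The means were 14.5 ± 5.81 and 25.6 ± 8.47 CPM (SD, n = 6; log2 fold change 0.82, SE 0.24, edgeR adjusted p = 0.0313), and without both libraries 6 the log2 fold change was 0.87 (SE 0.098, adjusted p = 2.29e-06). Leaving out any 1 of DMSO libraries 1 to 5, or EZH2i library 4, ended the call, with adjusted p from 0.0577 to 0.0769, as did any 1 of numbers 1 to 5 in both groups (0.0717 to 0.102). Over all 12 libraries, Bhlhe40 and Nfil3 had the highest positive correlation of any pair of the 9 after group means were removed (Pearson r = 0.93, and 0.73 over the 10 without number 6). Eomes and Bach2 had the most negative one (r = -0.94, and -0.47 without number 6). These ranks did not hold without number 6. There Tbx21 and Eomes had the highest correlation (r = 0.79, and 0.88 over all 12 libraries), and Tbx21 and Bach2 the most negative (r = -0.66, and -0.82 over all 12).

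**Figure D3:**
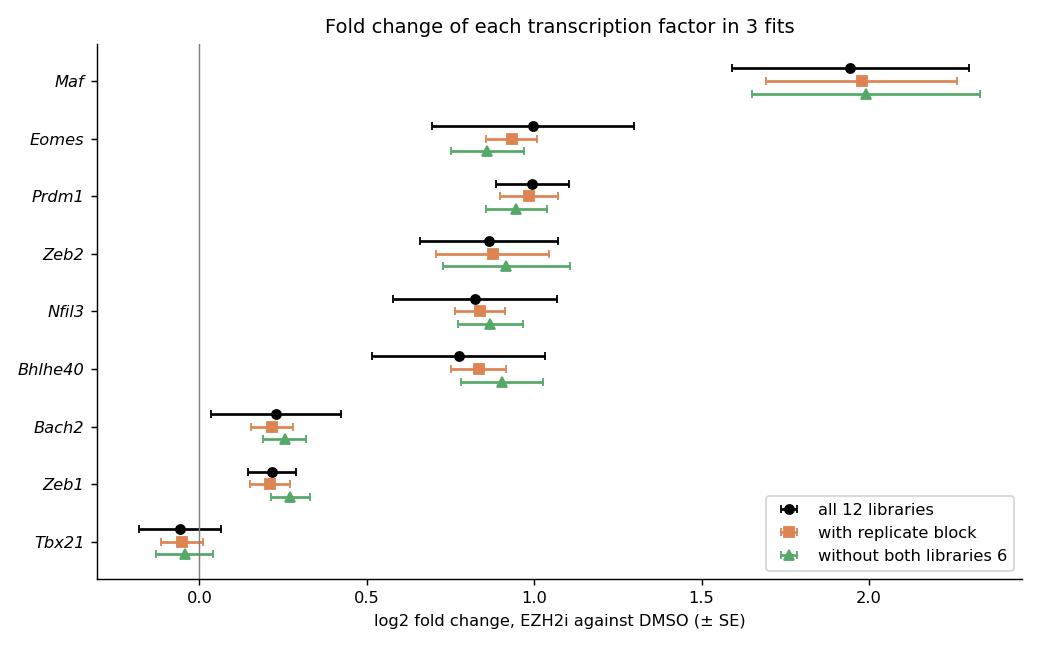
Log2 fold change of EZH2i against DMSO with its SE (horizontal axis) for each factor, from all 12 libraries, with the replicate number as a block, and without both libraries 6. Estimates differ little between the fits, while the errors of Eomes, Nfil3, Bhlhe40 and Bach2 shrink in the other two.

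For several of these genes, library 6 differed from its group by as much as the groups differed from each other. In DMSO, library 6 exceeded the mean of the other 5 by 0.98 for Eomes, 1.21 for Bhlhe40 and 1.08 for Nfil3 on the log2 scale, and in EZH2i by 1.42, 0.76 and 0.93. Bach2 was lower in library 6, by a log2 difference of -0.84 in DMSO and -1.07 in EZH2i. Prdm1 and Zeb1 differed little in DMSO, by 0.16 and 0.01, but by 0.43 and -0.32 in EZH2i. Within number 6, EZH2i was above DMSO for Maf (log2 difference 1.58), Eomes (1.30), Prdm1 (1.20), Nfil3 (0.71), Zeb2 (0.54), Bhlhe40 (0.45) and Bach2 (0.02), and below it for Zeb1 (-0.06) and Tbx21 (-0.09). What number 6 stands for is not given in the labels, and its part in the results was not tested beyond these values.

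**Figure D4:**
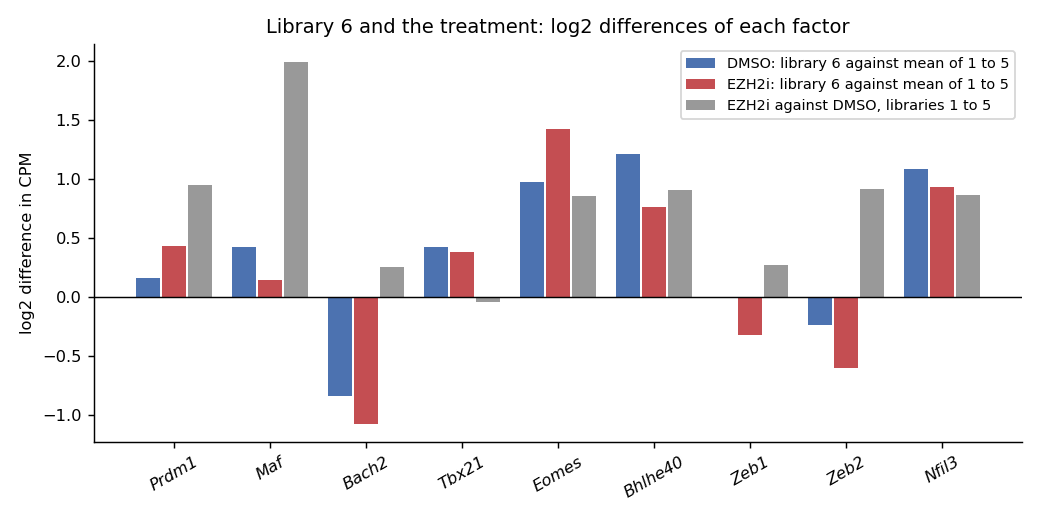
Log2 differences in CPM (vertical axis) for each factor: library 6 against the mean of libraries 1 to 5 in DMSO and in EZH2i, and the fitted EZH2i against DMSO difference in libraries 1 to 5. Eomes, Bhlhe40 and Nfil3 are higher both in library 6 and in EZH2i, and Bach2 is lower in library 6. For Maf, Prdm1 and Zeb2 the EZH2i difference is the largest of the 3 bars in size, whatever the sign.

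Per kilobase of annotated exon, the order of levels in DMSO was Tbx21 (21.2 ± 3.69 CPM per kb), Eomes (17.0 ± 6.13), Bach2 (8.90 ± 1.88), Bhlhe40 (8.43 ± 3.96), Nfil3 (7.17 ± 2.87), Zeb1 (5.03 ± 0.164), Prdm1 (1.31 ± 0.104), Zeb2 (0.106 ± 0.0277) and Maf (0.0513 ± 0.0280). Neighbours in this order overlapped over the DMSO libraries, except Zeb1 with Prdm1 and Prdm1 with Zeb2. In EZH2i, Eomes came first at 33.8 ± 18.5 CPM per kb and Tbx21 second at 20.4 ± 2.75, then Bhlhe40 (14.4 ± 3.92), Nfil3 (12.7 ± 4.18) and Bach2 (10.4 ± 2.52). Zeb1 (5.85 ± 0.597), Prdm1 (2.61 ± 0.399), Maf (0.197 ± 0.0335) and Zeb2 (0.195 ± 0.0446) followed, and there the neighbours that did not overlap were Zeb1 with Prdm1 and Prdm1 with Maf. Zeb2 has 19.9 kb of merged exons, more than any single transcript need hold, which lowers its value per kilobase.

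The genes whose levels followed each factor most closely over the 12 libraries were taken from 9206 genes with at least 5 CPM, and the correlations describe libraries that share groups and number 6. Prdm1 was most like Kit, the stem cell factor receptor (Pearson r = 0.98), and Spats2 (0.98), and both rose, with log2 fold changes of 3.04 and 2.01. Eomes was most like Gem, a small GTPase (0.97), and the collagen gene Col6a2 (0.97). Nfil3 was most like Emilin2 (0.99) and Hic1 (0.98), Bach2 like Ranbp10 (0.99) and Heca (0.99), and Bhlhe40 like Tex2 (0.98). Tbx21 followed Myc, a regulator of growth genes (0.95), and Ssrp1 (0.94), neither of which was called. Zeb1 followed Lrrc8d (0.96) and Zmynd11 (0.95), Zeb2 Fam213a (0.93) and Katnal1 (0.92), and Maf Trim3 (0.94) and Slc52a3 (0.93).

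Genes that T-bet and Eomes are known to activate were next counted, and for this and the following lists the counts stand beside the 13.3% of all tested genes called higher and 6.05% lower, or 24.7% and 24.3% when blocked on number. Of 13, 9 were tested, 4 rose and 0 fell in edgeR (1 with an unadjusted p under 0.05, 1 in DESeq2), with a median log2 fold change of 0.63. Those that rose were Fasl, the death ligand (1.12, edgeR adjusted p = 0.00618), Il12rb2, a chain of the interleukin 12 receptor (0.80, adjusted p = 3.14e-06), the chemokine Ccl5 (0.77, adjusted p = 0.00850) and the pore protein Prf1 (0.54, adjusted p = 0.0138). Fasl measured 18.3 ± 6.13 CPM in EZH2i against 8.42 ± 2.96 in DMSO (SD, n = 6). The call of Prf1 held in 16 and that of Ccl5 in 17 of the 18 fits that left out libraries, with edgeR adjusted p up to 0.0796 and 0.0520. The chemokine receptor Cxcr3 stood at a log2 fold change of -0.48 (adjusted p = 0.0530) and was lower in 6 of 6 same-numbered pairs. Blocked on number, 8 rose and 1 fell. Ifng, Klrg1, Cx3cr1 and S1pr5 were too low to test; Ifng summed to 64 counts in DMSO and 50 in EZH2i.

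Inhibitory genes attributed to Blimp-1 with c-Maf numbered 7, of which 4 were tested and 2 rose. Tigit went from 43.6 ± 8.71 to 90.2 ± 19.7 CPM and Pdcd1 (PD-1) from 6.63 ± 1.41 to 12.1 ± 1.23 CPM (SD, n = 6), with edgeR adjusted p of 0.000907 and 0.000679. Lag3 and Havcr2 had log2 fold changes of 0.57 and 0.68 and were not called. Blocked on number, 3 of the 4 rose, Lag3 among them (adjusted p = 1.56e-06); Lag3 was higher in 6 of 6 same-numbered pairs. Il10, a cytokine that c-Maf activates, was too low to test, with 12 counts over the DMSO libraries and 127 over the EZH2i libraries. Procr had 10 and 40, and Pdpn had none in either group.

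Of 12 genes that Blimp-1 is known to repress, 10 were tested, 2 rose and 0 fell in edgeR, and 2 had an unadjusted p under 0.05 with a negative fold change, Id3 among them; DESeq2 called 0 lower. The median log2 fold change was 0.02. Ciita, the activator of class II genes, rose from 0.531 ± 0.217 to 2.15 ± 0.652 CPM (SD, n = 6; adjusted p = 0.000389), and Klf2, a quiescence factor, rose by a log2 fold change of 0.59 (adjusted p = 0.0207) that was -0.04 within number 6. Ciita reached the filter limit of 0.409 CPM in 4 of 6 DMSO libraries and in 6 of 6 EZH2i libraries, so it was tested through its EZH2i level. Klf2 lost its call without EZH2i library 5 (edgeR adjusted p = 0.0514). Its call held in 12 of the 18 fits that left out 1 library or 1 number in both groups, with adjusted p up to 0.0926. Blocked on number, 3 of the 10 rose and 2 fell, beside 24.7% and 24.3% of all tested genes. Tcf7, Ccr7, Il7r and S1pr1 had log2 fold changes between -0.09 and 0.05.

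**Figure D5:**
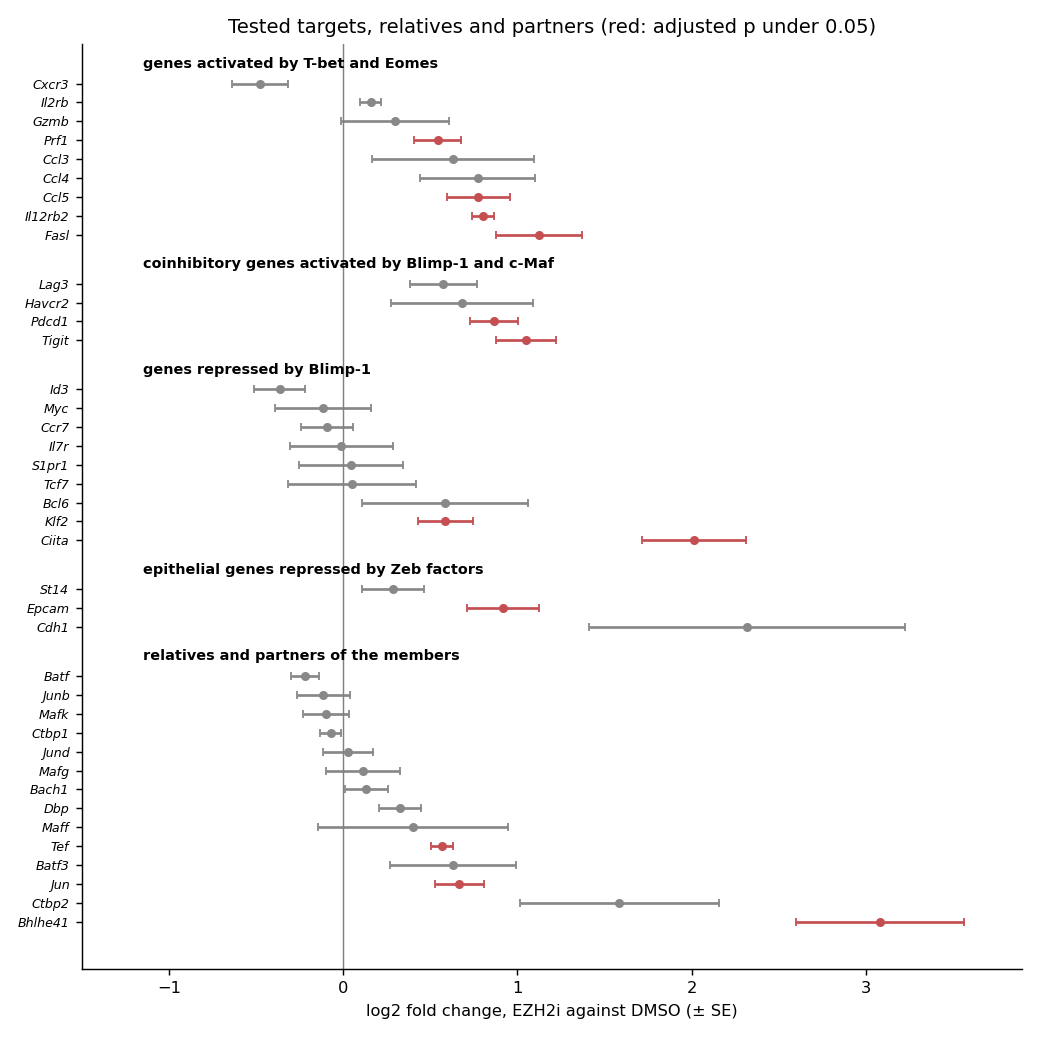
Log2 fold change of EZH2i against DMSO with its SE (horizontal axis) for the tested genes of the 5 lists of targets, relatives and partners, with 1 uncalled gene not shown, in red where the adjusted p was under 0.05. The 12 genes in red all lie to the right of 0, from Prf1 at 0.54 to Bhlhe41 at 3.08.

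Epithelial genes that Zeb factors silence in other tissues were mostly too low to test. Of 8, 3 were tested and 1 rose, the adhesion molecule Epcam, from 1.06 ± 0.293 to 2.01 ± 0.373 CPM (SD, n = 6; edgeR adjusted p = 0.00726). Cdh1, which encodes E-cadherin, had a log2 fold change of 2.32 with an SE of 0.91 (adjusted p = 0.0940). Cdh1 reached the filter limit of 0.409 CPM in 3 of 6 DMSO libraries and in 6 of 6 EZH2i libraries, so it was tested through its EZH2i level. Blocked on number, 3 rose.

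Relatives and partners of the 9 numbered 17, of which 16 were found, 14 were tested, 3 rose and 0 fell in edgeR. Batf, an AP-1 partner, had a log2 fold change of -0.22 with an unadjusted p of 0.0160, and DESeq2 called 1 gene lower. Bhlhe41, the closest relative of Bhlhe40, rose from 0.169 ± 0.143 to 1.48 ± 0.611 CPM (SD, n = 6; log2 fold change 3.08, SE 0.48, edgeR adjusted p = 0.000577). All 6 DMSO libraries lay under the filter limit of 0.409 CPM for Bhlhe41, so it was tested through its EZH2i level. Jun, an AP-1 subunit, rose by a log2 fold change of 0.67 (adjusted p = 0.00478), and Tef, a leucine zipper factor whose sites Nfil3 shares, by 0.57 (adjusted p = 4.28e-05). The other AP-1 genes Junb and Jund (-0.11 and 0.03), the small Maf genes Maff, Mafg and Mafk (0.40, 0.12 and -0.10) and Bach1 (0.13) were not called. Mafg and Mafk partner Bach factors on DNA. Blocked on number, 6 of the 14 rose and 1 fell, against the same 24.7% and 24.3% of all tested genes.

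Several of the 9 are also expressed by other blood cells, so marker lists were read beside them. For macrophages, which express Maf, Zeb2 and Bhlhe40, 6 markers summed to 4.29 to 10.7 CPM in DMSO and 6.19 to 18.4 CPM in EZH2i. Within that list Itgam, an integrin chain also carried by activated T cells, rose from 4.75 to 11.6 CPM (log2 fold change 1.28, edgeR adjusted p = 0.0112). Cd68 averaged 4.21 CPM in DMSO and 3.49 CPM in EZH2i and was not called (edgeR adjusted p = 0.503). Lyz2 averaged 0.194 and 0.283 CPM. Csf1r and Adgre1 were at or under 0.0307 CPM in mean level in both groups, and Fcgr1 had no count. Dendritic cell markers summed to 0.179 to 1.69 CPM in DMSO and 1.30 to 3.77 CPM in EZH2i. Among them Itgax rose from 0.513 to 2.01 CPM (edgeR adjusted p = 0.00726). Zbtb46, too low to test, averaged 0.226 CPM in DMSO and 0.573 CPM in EZH2i, while Flt3 averaged 0.0272 and 0.0372 CPM and Xcr1 0.135 and 0.0589 CPM. Without both libraries 6, 2 dendritic cell markers were called higher.

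For natural killer and innate T cells, which express Eomes, Tbx21 and Nfil3, the 4 markers found summed to 0.518 to 1.49 CPM in DMSO and 4.48 to 9.69 CPM in EZH2i. Klrb1c rose from 0.852 to 5.10 CPM (edgeR adjusted p = 8.77e-05), whereas Ncr1 was at 0.0455 CPM in both groups and Klra8 had no count. Zbtb16 averaged 0.181 CPM in DMSO and 0.511 CPM in EZH2i and was not called (log2 fold change 1.45, edgeR adjusted p = 0.0523). Blocked on number, Zbtb16 was called higher (edgeR adjusted p = 0.0116). Its DMSO median of 0.154 CPM lay under the filter limit of 0.409 CPM, so it was tested mainly through its EZH2i level. It was tested in 14 of the 18 fits that left out libraries. For plasma cells, which express Prdm1, the list summed to 77.4 to 214 CPM in DMSO and 80.2 to 226 CPM in EZH2i, nearly all of it Xbp1 (107 and 109 CPM), and Jchain was at 0.225 and 0.0824 CPM. Sdc1, at 0.296 and 0.731 CPM, was not called (edgeR adjusted p = 0.0633), but was called higher when blocked on number (adjusted p = 0.0274). The DMSO median of Sdc1, 0.292 CPM, also lay under the filter limit, so it too was tested mainly through EZH2i. B cell markers were led by Cd79b (21.8 and 18.3 CPM), with Ms4a1 at 0.0185 and 0.0752 CPM. Neutrophil markers summed to at most 0.277 CPM and erythroid markers to at most 0.148 CPM. Of 5 CD8 T cell markers, Cd8a and Cd3g fell; Cd3g lost its call without any 1 of DMSO libraries 1, 2, 3 and 5 or EZH2i libraries 2 to 5 (adjusted p from 0.0533 to 0.0972). Of the CD4 T cell list, Zbtb7b rose from 14.6 to 22.2 CPM. Foxp3 averaged 6.02 CPM in DMSO and 7.82 CPM in EZH2i and was not called (edgeR adjusted p = 0.267), but was called higher when blocked on number (edgeR adjusted p = 0.00999). Cd40lg, too low to test, averaged 0.144 and 0.0909 CPM. The part of these shifts in the 9 genes was not tested.

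The genomic neighbours of the 9 were examined after the data had been seen, taking the nearest tested gene on each side, 20.1 to 3697 kb away. Of 18 neighbours, 5 rose and 2 fell, or 38.9%, beside 19.3% of all tested genes called in either direction. Of the 7, Golga4 beside Eomes, Casp8ap2 beside Bach2 and Sptlc1 beside Nfil3 each lost their call without any 1 of several libraries: Golga4 without DMSO library 1, 2, 3 or 5 or EZH2i library 5, Casp8ap2 without EZH2i library 3, 4 or 5, and Sptlc1 without DMSO library 1, 3 or 6 or EZH2i library 1, 2, 3, 4 or 5 (adjusted p from 0.0501 to 0.0855). Tbkbp1, 20.8 kb from Tbx21, rose from 10.4 to 17.2 CPM (log2 fold change 0.73, edgeR adjusted p = 0.00368) while Tbx21 did not. Itpr1, a calcium channel gene beside Bhlhe40, rose by a log2 fold change of 0.53 (adjusted p = 0.000356), and Auh beside Nfil3 by 0.41 (adjusted p = 0.0109). Acvr2a, taken with Zeb2 though 3697 kb away, rose by 1.43 (adjusted p = 0.000390). Neither neighbour of Prdm1, Atg5 or Prep, was called, nor was either neighbour of Maf, Wwox or Cdyl2. Blocked on number, 9 of the 18 rose and 3 fell, beside 24.7% and 24.3% of all tested genes; Cdyl2 was then called (adjusted p = 0.0484).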

How the data were processed

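Raw read counts per gene symbol were deposited by the authors, 1 table per library. The submitters' processing notes name FastQC 0.11.7, Trimmomatic 0.38, TopHat2 2.1.1, SAMtools 1.9, featureCounts and build GRCm38 (mm10); the labels' protocols name a stranded mRNA kit. The sources used here give neither the gene annotation nor the strand setting of the counting, so reads of Zeb2 and Zeb2os (653 shared exon bases on opposite strands), Bach2 and Bach2os (537) and Maf and Gm15655 (440) may be mixed.

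The deposited counts went into edgeR 4.0.16 (R 4.3.3): filterByExpr defaults, TMM scaling, and the two-sided quasi-likelihood test on group alone. SE is the size of the log2 fold change divided by the square root of F. CPM uses TMM-scaled totals; log2 CPM for correlations and same-numbered differences has a prior count of 2. Ratios add 0.5 counts to each gene. Positions and merged exon lengths are from GENCODE M21 and promoters from RefSeq. Members and lists were chosen with earlier results of these data known. Named are the 9 genes, up to 3 called genes per list and direction, the 2 genes most alike to each, and marker genes; others named in lists (Prf1, Cxcr3, Lag3 and those given as not called or untested) and all neighbours were chosen after their values were seen. A few genes are not reported here by name.

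The groups share numbers 1 to 6 of unstated meaning. Deviations of same-numbered libraries from group means correlated with r of 0.213 to 0.847, all over the limit of 0.1, so numbers were taken as pairs from the data. Without number 6 the lowest was 0.0411, under that limit. For 3 of the 6 numbers, the same-numbered libraries were each other's closest match across groups. The pairing is thus uncertain, and the block was used only as an alternative. Replicates differed by more than sampling noise (chi-square per degree of freedom at least 4.94). Alternatives were RLE and upper-quartile scaling, no count filter, DESeq2 1.42.0, the replicate block and leaving out libraries.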

Additional observations from a re-analysis of the deposited data

Results flagged for a closer look

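In 13 of 46 groups of 6 libraries, taken over the 9 genes, the named list genes and the 3 ratios, 1 library stood far outside the others; chance gives about 1 in 20. All 13 were number 6, so they are not 13 independent events. In DMSO library 6, Eomes was at 119 CPM (others 44.3 to 67.3), Bhlhe40 at 75.3 (23.7 to 40.2), Nfil3 at 26.0 (10.4 to 14.8) and Jun at 72.8 (36.0 to 48.0), and the Eomes to Tbx21 log2 ratio was 0.83 (0.17 to 0.36). In EZH2i library 6, Eomes was at 294 CPM (88.5 to 134), Bhlhe40 at 103 (53.7 to 71.6), Nfil3 at 42.5 (18.9 to 24.8) and Fasl at 30.3 (13.9 to 18.0). Bach2 was low there at 54.2 CPM (107 to 121), as was Klf2 at 135 (253 to 298). The Eomes to Tbx21 log2 ratio was 2.22 there (0.92 to 1.37) and the Prdm1 to Bach2 ratio -1.55 (-3.14 to -2.77). Eomes, Bhlhe40 and Nfil3 thus stood out in both groups.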

How the results depend on the processing

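Prdm1 and Maf were called higher under every alternative tried, and Tbx21 under none. With the replicate block, 8 of the 9 genes rose, 23 list genes rose and 4 fell, and over all genes 2892 rose and 2849 fell, against 5, 12, 0, 1557 and 709 without it; all 3 ratios kept an adjusted p of 0.0313, the smallest that 64 sign changes allow. The block gave Zeb1, Bhlhe40 and Bach2 a call and took none of the 9 away. Leaving out libraries gave 2 to 8 of the 9 genes higher (0 lower), 10 to 20 list genes higher and 0 to 4 lower, and 1069 to 2815 genes higher and 296 to 2455 lower over all. The 2 arose without number 2 in both groups and the 8 without number 6. The Prdm1 to Bach2 difference ran from 0.52 to 0.93, the Eomes to Tbx21 difference from 0.81 to 1.07 and the Zeb2 to Zeb1 difference from 0.53 to 0.75. With upper-quartile scaling 1800 genes rose and 347 fell, and with DESeq2 1125 fell. List genes called lower numbered 2 with RLE scaling, 2 with DESeq2 and 1 without the count filter. Zeb1 and Bhlhe40 were called with upper-quartile scaling (adjusted p = 0.0184 and 0.0329) and with DESeq2 (0.0284 and 0.0230). The cause of these changes was not tested. Low counts limit Maf and Zeb2 most.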
